A study of Homo sapiens with 13 samples.

Results

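The regions described here are sites where JUN was listed alone, far from the Hippo coactivators: merged peak regions of MDA-MB-231 cells that held a JUN peak and no peak of YAP, TAZ or TEAD4, and whose nearest YAP or TAZ peak on the same chromosome lay over 100 kb away, edge to edge. They were chosen by the measured positions of the peaks in the 4 lists, so their count, and their lack of YAP, TAZ and TEAD4, are descriptions and not findings. The rule gave 5384 far JUN-only regions. They made up 19.2% of the 28100 regions left after merging all overlapping peaks, 21.9% of the 24530 regions with JUN (exact binomial 95% interval, 21.4 to 22.5) and 33.0% of the 16291 regions with JUN alone (32.3 to 33.8). Each of the 5384 consisted of exactly 1 JUN peak. Intervals cover counting error only, and neighbouring regions are not independent.

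MDA-MB-231 is an established human breast cancer cell line, and no treatment or genetic change is named in the labels. Chromatin immunoprecipitation and sequencing (ChIP-seq) was done for YAP, TAZ, TEAD4 and JUN with 2 libraries each, beside 2 rabbit and 3 mouse control IgG libraries. There is 1 peak list per factor, shared by both of its replicates, so no value below has a spread between replicates. Peak names in the JUN list carry the tag Rep13 where the other lists have Rep0, and those in the TAZ list carry the tag YAPTAZ. What the tags say of the libraries behind these lists is not stated, so that each list covers exactly its factor's libraries rests on the labels alone. JUN peaks were scored against the pooled mouse IgG libraries titled 3 and 5, and YAP and TAZ peaks against rabbit IgG, while the raw file names place the JUN libraries on 2 sequencing runs and YAP and TAZ on another. Antibody, IgG species and run therefore cannot be told apart from the factor where JUN is set against YAP or TAZ.

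JUN is a subunit of AP-1, a family of transcription factors that bind DNA as dimers of JUN and FOS family proteins through a basic leucine zipper. AP-1 responds to growth factors, stress and cytokines, and its sites are frequent in distal enhancers. YAP and TAZ are transcriptional coactivators that the Hippo pathway restrains. They do not bind DNA themselves and reach it through partners, above all the TEAD proteins, of which TEAD4 is 1. In breast cancer cells, enhancers that hold YAP, TAZ and TEAD often hold AP-1 as well. The far JUN-only regions lie at a distance from such sites, as do some regions with JUN and TEAD4.

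The gap to the nearest YAP or TAZ peak, the value that chose the regions, had a median of 209 kb (95% interval of the median from order statistics, 204 to 214 kb). The middle 50% lay between 140 and 351 kb. Of the 5384 regions, 47.4% lay between 100 and 200 kb from YAP or TAZ, 39.7% between 200 and 500 kb and 9.70% between 500 kb and 1 Mb. The remaining 175 regions (3.25%) lay over 1 Mb away. The distances of all JUN-only regions formed 1 broad hump on a log scale, and the 100-kb threshold ran through its highest part. The division into far and near regions thus follows no gap in the data. Just inside the threshold, at 100017 to 100121 bp, 5 regions had enrichments of 7.81 to 12.6 and 111 to 196 fragments. Just outside it, at 99919 to 99947 bp, 5 regions had enrichments of 10.3 to 18.0 and 100 to 201 fragments, and these ranges overlap.

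**Figure D1:**
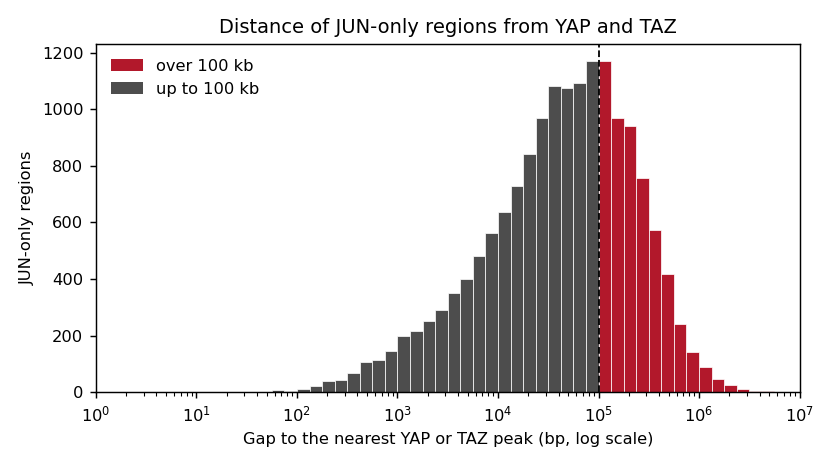
Number of JUN-only regions (y axis) by gap in bp to the nearest YAP or TAZ peak (x axis, log scale), with the 100-kb threshold as a dashed line. The 5384 far regions form the right side of a single hump with no break at the threshold.

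Fold enrichment over IgG and p, as the authors give them for each peak, were used to recover 2 plainer quantities: the number of JUN fragments piled up at the summit, and the local background that the peak caller set against it. Under the formulas that MACS2 uses, 1 whole number of fragments gave the listed p to within 0.001 on the −log10 scale at all 24554 JUN peaks, and no second number did so at any of them. The ChIP pileup had been multiplied by 0.933 before it was compared with the IgG, and the background is given on that reduced scale. The same solution held for 9798 of 9798 TAZ peaks, 7708 of 7709 YAP peaks and 8406 of 8406 TEAD4 peaks. A second number also fitted at 8 of the TEAD4 peaks. The JUN list ran from 91 to 420 fragments, the YAP list from 46 and the TAZ list from 44, so a listed JUN peak rested on more fragments than the weakest YAP and TAZ peaks. The totals of reads per library are unknown here.

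Far JUN-only regions had nearly the same median JUN enrichment as the JUN-only regions near YAP or TAZ, and they held fewer fragments over a lower background. The median enrichment was 11.1 (95% interval of the median, 11.0 to 11.2) at the far regions and 11.0 (10.9 to 11.0) at the 10907 near ones, a ratio of 1.01. The median number of fragments at the summit was 144 (143 to 146) at the far and 155 (154 to 157) at the near regions, a ratio of 0.929. The median background was 11.0 and 12.2, a ratio of 0.905. Far regions were also narrower, with a median of 647 bp (637 to 654) against 707 bp (702 to 716). By p the order was the opposite of that by enrichment: the median −log10 p was 92.5 at the far and 98.1 at the near regions, a ratio of 0.943. All 5 measures overlapped widely between the classes, and the middle 50% of far regions ran from 119 to 184 fragments against 127 to 200. All listed JUN peaks had a −log10 p of at least 54.4, and reaching it takes more fragments where the background is higher. Far regions near this limit had, for example, 91 fragments over a background of 8.17 and 168 over 32.0. The part of this limit in the lower fragment median of the far regions was not tested. No test was run, because the lists that give these values also chose the regions.

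JUN regions that held YAP or TAZ had higher medians than both JUN-only classes. Their 7550 regions had a median enrichment of 13.7 (13.6 to 13.9), 203 fragments (201 to 205) and a background of 12.9. Far JUN-only regions had 0.808 times that enrichment and 0.709 times that number of fragments. The middle 50% overlapped here too, with 156 to 261 fragments at regions with YAP or TAZ against 119 to 184 at the far ones. JUN regions with TEAD4 and neither YAP nor TAZ, 689 in number, had a median of 160 fragments and an enrichment of 11.4 (11.1 to 11.8), close to the JUN-only classes. The width of regions with several factors includes the other factors' peaks, so widths compare only between the JUN-only classes.

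**Figure D2:**
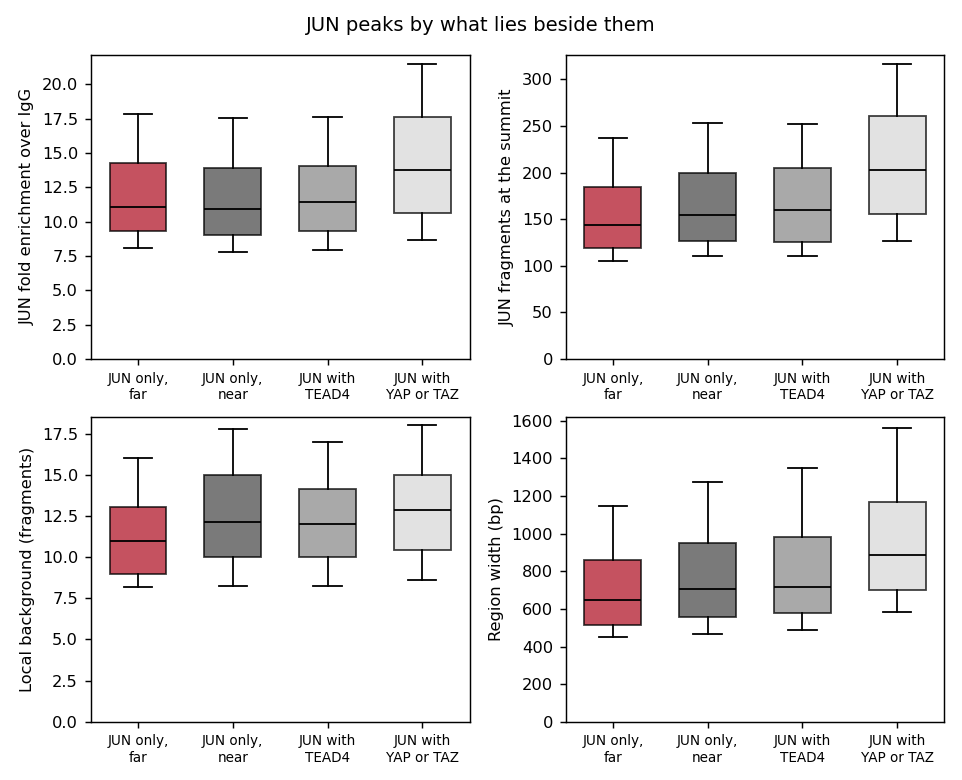
JUN fold enrichment, JUN fragments at the summit, local background on the reduced scale and region width in bp (y axes) in 4 classes of JUN regions: boxes are quartiles with the median, whiskers the 10th and 90th percentiles. Far JUN-only regions match the near ones in enrichment (medians 11.1 and 11.0) and have the lowest median fragments (144) and background (11.0).

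Enrichment stayed level along the range of distances, while fragments and width went down. Median JUN enrichment was 10.9 at JUN-only regions up to 10 kb from YAP or TAZ, 10.9 at 100 to 200 kb, 11.3 at 200 to 500 kb and 11.3 (10.9 to 12.5) beyond 1 Mb. Over the same 4 distances the median number of fragments was 159, 147, 144 and 137. The median width was 740, 669, 641 and 584 bp. Among the far regions alone, Spearman's rho across the 5384 regions was 0.046 between distance and enrichment, -0.080 between distance and fragments and -0.16 between distance and background. These regions share libraries and neighbours, so the coefficients are descriptions. The limit that the lowest listed p sets on fragments and enrichment bears on the medians and coefficients given here too.

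The lowest background in the JUN list was 8.17, a floor that 10.9% of all JUN peaks shared. Of the far JUN-only regions 1018 (18.9%, 17.9 to 20.0) sat at this floor, against 9.48% of the near ones (8.94 to 10.0) and 7.47% of JUN regions with YAP or TAZ (6.89 to 8.09). The share at the floor was 7.22% (6.36 to 8.16) up to 10 kb from YAP or TAZ and 38.3% (31.1 to 45.9) beyond 1 Mb. Turned round, 49.6% (47.4 to 51.8) of the JUN-only regions at the floor were far, 34.6% of those with a background of 10 to 12 and 21.1% (19.0 to 23.2) of those over 17. Without chromosome X these shares were 48.2%, 34.6% and 21.1%. Background moves with distance in these data, and its part in which regions have no listed YAP or TAZ peak within 100 kb was not tested.

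**Figure D3:**
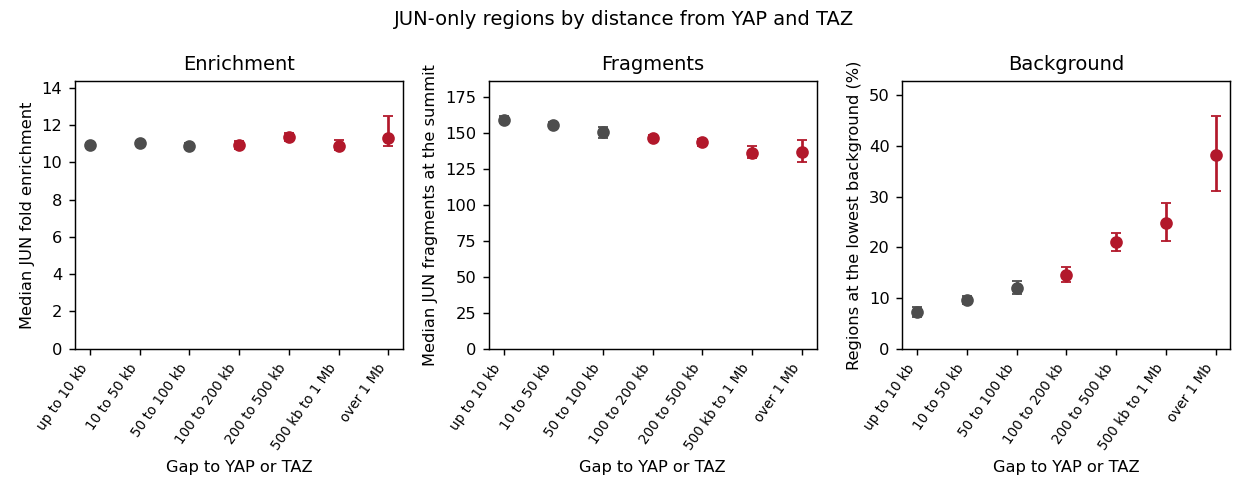
Median JUN enrichment, median JUN fragments and percent of regions at the lowest background (y axes) of JUN-only regions in 7 classes of gap to YAP or TAZ (x axes), with 95% intervals: order statistics for medians, exact binomial for shares. Enrichment is level, fragments go from 159 to 137 and the share at the lowest background from 7.22% to 38.3%.

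Strong JUN peaks occurred far from YAP and TAZ as well. With the JUN regions divided by enrichment into 10 equal parts of 2453, far JUN-only regions made up 14.7% (13.3 to 16.1) of the strongest part, 27.0% (25.3 to 28.8) of part 7 and 21.3% (19.7 to 23.0) of the weakest. Regions with YAP or TAZ took 55.8% of the strongest part and 18.9% of the weakest. Within the JUN-only regions the far share changed little with enrichment over most of the range: 34.4% (31.6 to 37.4) in the strongest part, 35.8% in part 7 and 27.2% (25.2 to 29.3) in the weakest. When the parts were made by p, the far share of JUN-only regions went the other way at the ends. It was 28.6% (25.7 to 31.6) in the strongest and 37.1% (35.0 to 39.2) in the weakest part. The lowest listed p requires a higher enrichment where the background is lower, and far regions more often had a low background. The part of this limit in the far shares of the weaker parts was not tested. Of the 100 most enriched JUN regions, 16 were far JUN-only regions, a lower share than the 21.9% among all JUN regions. The most enriched far region ranked 9 among all JUN regions.

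**Figure D4:**
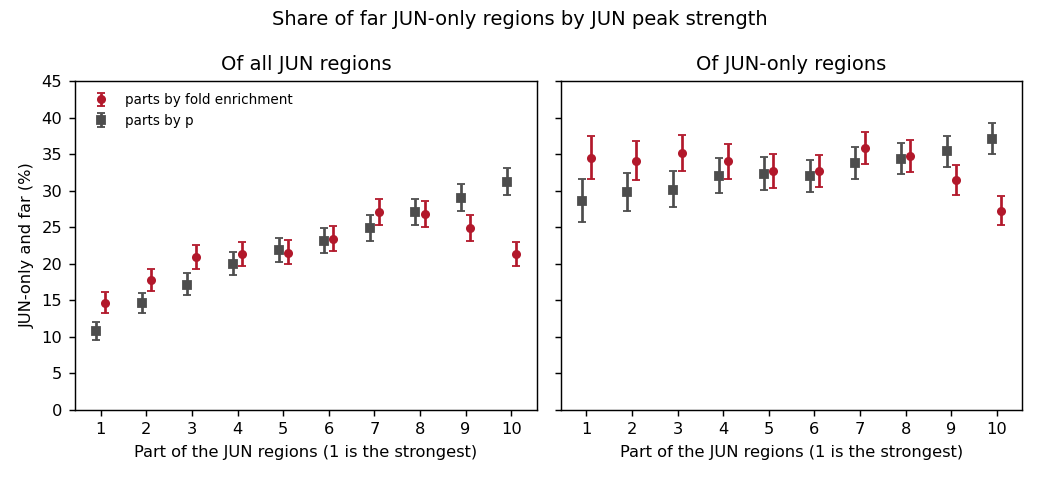
Percent of JUN regions (left) and of JUN-only regions (right) that are JUN-only and far, in 10 equal parts of the JUN regions ordered by enrichment or by p (x axis, 1 strongest), with exact binomial 95% intervals. Of all JUN regions the far share is lowest in the strongest part, 14.7% by enrichment and 10.7% by p. Of JUN-only regions it stays between 27.2% and 37.1% under both orders.

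The 10 far JUN-only regions with the highest enrichment lay on 7 chromosomes, with enrichments from 31.3 to 35.1 and 307 to 356 fragments. Each of them had more than 2 times the median fragment number of the far regions. The first was on chromosome 16 (hg19, 1052392 to 1053457), 35.1-fold enriched with 346 fragments over a background of 8.22, and 187 kb from both the nearest YAP or TAZ and the nearest TEAD4 peak. The second was on chromosome 4 (114388753 to 114390021), 34.4-fold with 337 fragments, 325 kb from YAP or TAZ and 167 kb from TEAD4. Chromosome 5 held the next 2. One, at 120609608 to 120610260, was 33.4-fold enriched with 327 fragments and 659 kb from any peak of the other lists. Its neighbour in rank, at 77188901 to 77189834, was 32.4-fold enriched with 356 fragments, the most of the 10, and 400.4 kb from YAP or TAZ.

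Chromosome 13 held the fifth (67507910 to 67508661, 32.0-fold) and the seventh (49322780 to 49324444, 31.7-fold), which with 1665 bp was the widest of the 10. Chromosome 22 held the sixth (28113911 to 28114896, 31.8-fold) and the last (41959030 to 41959817, 31.3-fold), the latter 106 kb from YAP or TAZ and so the closest of the 10 to the threshold. The eighth lay on chromosome 2 (216847042 to 216847737, 31.4-fold, 308 fragments) and the ninth on chromosome 15 (49217756 to 49218572, 31.3-fold, 307 fragments). The regions on chromosomes 2 and 15 were the only ones of the 10 with a TEAD4 peak within 100 kb, at 51.2 and 69.3 kb. At 7 of the 10 the background was the floor value of the list, as it was at 18.9% of all far regions. Enrichment is divided by the background, so choosing regions by it favours low backgrounds.

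TEAD4 was far away from most of these regions too. The rule bars a TEAD4 peak from the region itself but sets no distance to TEAD4. Since most TEAD4 peaks overlap YAP or TAZ, the distance is nevertheless tied to the rule and was not tested. The median gap to the nearest TEAD4 peak was 207 kb (201 to 213) at the far regions and 33.0 kb (31.7 to 34.0) at the near ones. A TEAD4 peak lay within 10 kb of 120 far regions (2.23%, 1.85 to 2.66), within 50 kb of 7.41% and within 100 kb of 13.1%, against 24.6%, 62.4% and 84.9% of the near regions. At 1325 far regions (24.6%, 23.5 to 25.8) TEAD4 was nearer than YAP or TAZ by over 1 kb. The 120 regions with TEAD4 within 10 kb had a median enrichment of 10.9 and 148 fragments, beside 11.1 and 144 at the other 5264.

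The share of far regions was close to that among the other regions without YAP and TAZ. A gap over 100 kb was found at 33.0% (32.3 to 33.8) of JUN-only regions, 32.2% (29.0 to 35.4) of the 855 regions with TEAD4 alone and 30.6% (27.2 to 34.2) of the 689 with JUN and TEAD4. The 3 intervals overlap.

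Parts of the genome over 100 kb from any YAP or TAZ peak were large but thin in JUN. Between the first and last listed peak of each chromosome they came to 1837 Mb, or 62.8% of that span, with assembly gaps not removed. They held 2.93 JUN-only regions per Mb, against 10.0 per Mb in the 1086 Mb within 100 kb. They also held 211 regions with JUN and TEAD4 and 275 with TEAD4 alone. The rule also bears on spacing. No YAP or TAZ peak can lie within 100 kb of a far region, which largely keeps JUN regions with YAP or TAZ away. Near regions have a YAP or TAZ peak within that distance. The median gap from a far region to the nearest other JUN region was 46.4 kb (44.0 to 48.5), against 10.1 kb (9.66 to 10.6) for near regions. While 97.5% of near regions had another JUN region within 100 kb, 1634 far regions (30.3%) had none. These isolated regions had a median of 138 fragments (136 to 141) and a width of 594 bp, against 148 (145 to 149) and 667 bp at the other 3750, with enrichments of 11.0 and 11.1.

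Many far regions had others nearby. Another far JUN-only region lay within 100 kb of 61.8% (60.5 to 63.1) of them and within 10 kb of 21.6%. YAP and TAZ peaks left 3501 stretches over 200 kb between neighbours, and 1974 of these (56.4%) held at least 1 far JUN-only region, with a median of 2. A single far region was found in 772 of them, and 10 or more in 40, which together held 461 regions (8.56% of the 5384). The 1527 stretches without one had a median length of 0.310 Mb, against 0.610 Mb for those with one. The rule favours this order, since a far region must lie over 100 kb from both ends of its stretch. A further 39 far regions lay beyond the first or last YAP or TAZ peak of a chromosome.

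The stretch with the most was on chromosome 16 (30065218 to 47766079), 17.7 Mb long, with 19 far regions of 8.32- to 17.6-fold enrichment and 2 TEAD4 peaks. On chromosome 5 (5422700 to 10452974), 5.03 Mb without YAP or TAZ held 16. On chromosome 7 (578641 to 1576486), 15 far regions lay within 0.998 Mb, among them 1 with 324 fragments. The 2 longest stretches were on chromosome 9 (38683092 to 71712062, 33.0 Mb), with 1 far region of 7.47-fold enrichment, and on chromosome 1 (119822569 to 144941018, 25.1 Mb), with 8 of 5.31- to 11.7-fold. No annotation of hg19 was used, so how much of these spans is unsequenced was not examined.

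Counted in fixed bins of 1 Mb, far JUN-only regions occurred in 1973 bins. Of these, 642 held 1, 496 held 2 and 309 held 5 or more. The fullest was on chromosome 2 (216000001 to 217000000) with 13 far regions out of 18 JUN regions, beside 2 YAP, 2 TAZ and 3 TEAD4 peaks. From left to right its 13 regions had JUN enrichments of 10.5, 12.1, 10.6, 21.8, 16.3, 12.6, 8.87, 12.1, 12.3, 14.6, 15.8, 31.4 and 7.60. One of them, the 31.4-fold region named above, had 308 fragments, the next had 213 and the rest 102 to 168. The highest and the lowest enrichment of the bin thus belonged to direct neighbours. Chromosome 20 held the next 2 bins with 12 far regions each. The bin at 48000001 to 49000000 (164 to 280 fragments) had 35 JUN regions in all, beside 5 YAP and 6 TAZ peaks. That at 61000001 to 62000000 (119 to 279) had 19 JUN regions and 2 TAZ peaks. Chromosome 22 had 12 as well (47000001 to 48000000, 108 to 261 fragments), out of 15 JUN regions. Its bin held 2 TAZ peaks and no YAP or TEAD4 peak, and the highest enrichment was 24.3. One of the 4 bins with 11 was on chromosome 1 (224000001 to 225000000, 123 to 233 fragments). It had 24 JUN regions, 4 YAP and 5 TAZ peaks.

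Chromosomes differed in how many of their JUN regions were JUN-only and far. The share was 40.9% (36.1 to 45.9) on chromosome X, with 167 of 408 JUN regions, and between 14.2% (11.7 to 16.9) on chromosome 20 and 29.9% (25.5 to 34.6) on chromosome 22 on the autosomes, whose median was 21.2%. Chromosomes 4 (29.1%), 15 (28.2%) and 16 (27.3%) followed chromosome 22, and chromosomes 11 (17.2%) and 10 (17.3%) lay just above chromosome 20. The intervals of chromosomes 22, 4, 15 and 16 overlap one another, as do those of 20, 11 and 10. Chromosome X had 1.71 YAP and TAZ peaks per Mb and 2.69 JUN regions per Mb, against 4.85 to 8.49 and 6.65 to 12.9 on the autosomes. Of its span 85.1% lay over 100 kb from YAP or TAZ, against 49.7% to 70.8% on the autosomes. In that part chromosome X held 1.30 far regions per Mb, the fewest, against 2.07 to 5.94. It also had the lowest median background of JUN regions, 8.17, and chromosome 20 the highest, 16.1. Across the 23 chromosomes the far share and the median background had a Spearman's rho of -0.78 (Pearson's r -0.78), and -0.75 (r -0.73) without chromosome X. The far share and the density of YAP and TAZ peaks, on which the rule depends, had a rho of -0.65 over the same chromosomes. All chromosomes share the same libraries, so this is a description, and the part of background in the shares was not tested.

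**Figure D5:**
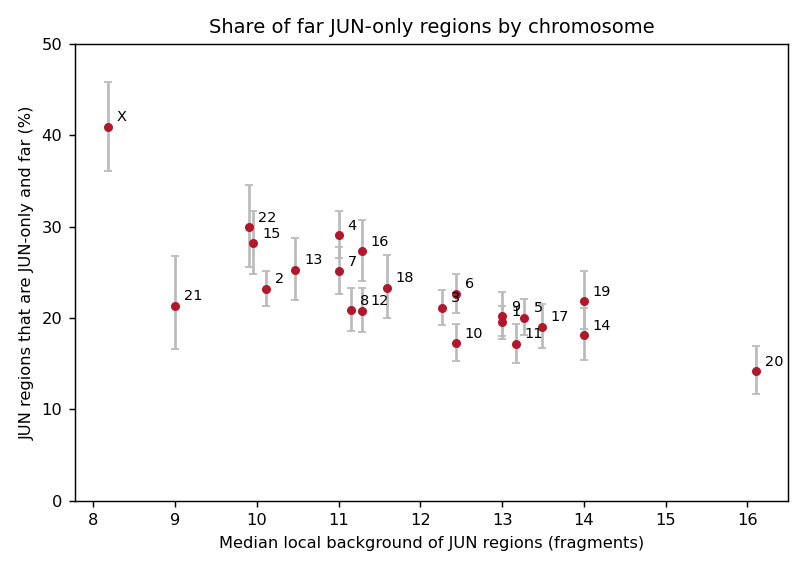
Percent of each chromosome's JUN regions that are JUN-only and far (y axis, exact binomial 95% intervals) against the median local background of its JUN regions on the reduced scale (x axis). Chromosome X, at 40.9% and 8.17, and chromosome 20, at 14.2% and 16.1, are the ends of the range.

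Far regions on chromosome X had a median of 115 fragments (113 to 123) and a width of 602 bp, against 145 (144 to 147) and 648 bp on the autosomes, with enrichments of 11.5 (10.9 to 12.1) and 11.1. At 71.3% of them the background was at the floor, against 17.2% on the autosomes. A lower background lets peaks of fewer fragments be listed but requires a higher enrichment of them. Its part in these medians was not tested. Of the 5 regions farthest from YAP or TAZ, 4 were on chromosome X. The farthest (94313787 to 94314287) lay 5622 kb away with 107 fragments and an enrichment of 11.0, and the third (29680155 to 29681588) lay 4791 kb away with 225 fragments and 23.0-fold enrichment. The only one on an autosome was on chromosome 5 (21152631 to 21153244), 3770 kb away, 14.1-fold enriched with 138 fragments.

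Within chromosomes the comparison of far with near JUN-only regions was mostly as over the genome. Median fragments were lower at the far regions on 21 of 23 chromosomes, the exceptions being chromosomes 7 (144.5 against 144) and 15 (141 against 139). Median background was lower on 22, with chromosome 20 alike at 16.0, and median width was lower on 22, the exception being chromosome 19 (884 against 793 bp). Enrichment showed no such order: it was higher at the far regions on 13 chromosomes and lower on 10. The ratio of median fragments, far over near, ran from 0.865 to 1.01 over the chromosomes with a median of 0.946, and that of enrichment from 0.934 to 1.08 with a median of 1.01.

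A peak that is not listed is not the same as no signal. Each peak name ends in a number. Within a chromosome the numbers only increase with position, and they reach 35378 in the YAP list and 43671 in the TAZ list, far above the 7709 and 9798 peaks listed. If the numbers count all candidate peaks, the gaps in them give how many candidates between 2 listed peaks were left off the list. Between the listed YAP peaks on either side of a far JUN-only region there were a median of 9 unlisted YAP candidates (middle 50%, 6 to 14), over a median stretch of 969 kb. The TAZ list had a median of 10 unlisted candidates over 819 kb, and the TEAD4 list 6 over 849 kb. No unlisted YAP candidate was counted in the stretch around 20 of 5306 far regions with YAP peaks on both sides (0.377%). Neither a YAP nor a TAZ candidate was counted around 4 of 5285 (0.0757%, 0.0206 to 0.194). Such counts depend on the length of the stretch and were not compared with near regions. Where in a stretch such a candidate lies cannot be read from the numbers, so these counts do not tell whether weak YAP or TAZ signal coincided with JUN. Stretches over 200 kb between listed YAP peaks had 7.73 unlisted candidates per Mb, and shorter ones 27.2, and for TAZ the values were 8.79 and 32.1. Between listed TEAD4 peaks they were 5.30 and 19.6, and between listed JUN peaks 14.6 and 46.6. The lower density in long stretches was thus common to all 4 lists. Long stretches are those without listed peaks of the same list, and their lengths include any assembly gaps. The part of either in these densities was not tested.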

How the data were processed

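The tools named by the submitters' processing notes are MACS2 2.0.10, SAMtools, CASAVA and Bowtie 0.12.7, and the build is hg19. Per the labels, peaks were found within the irreproducible discovery rate (IDR) framework, with 0.01 in the list names. How reads were filtered is not stated in these sources. For each peak the authors deposited a fold enrichment over pooled IgG (a ratio), −log10 of its p, a summit and a score, which was 10 times −log10 p to within 1. Scores were not used further. Per the labels, 1 deposited list per factor covers both replicates; depth per library is unknown here.

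Peaks overlapping by 1 bp or more were merged with Python 3.11.15, numpy 2.4.6, pandas 2.3.3 and scipy 1.17.1. Fragments n and background b were solved from fold = (s n + 1)/(b + 1) and p = P(Poisson(b) > s n rounded down), trying whole n up to 1199. The scale s was fitted on 60 peaks where s = 1 missed. This was tested on simulated data. Shares have Clopper-Pearson and medians order-statistic 95% intervals. No test was run.

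Named regions are the 10 most enriched, the 5 farthest, the 5 on either side of the threshold, the 5 fullest 1-Mb bins and the 3 longest stretches. The stretches named for holding the most far regions were chosen after their values were seen. The members were chosen with earlier results of these data known. Motifs and genes were not analysed here, since the gene and promoter tables used are on GRCh38.p14.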

Additional observations from a re-analysis of the deposited data

How the results depend on the processing

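Of 50 alternatives, 31 gave a value inside the 95% interval of the main one, or a count of regions within 1.5 times of the main count. The number of far JUN-only regions was 8109 with a threshold of 50 kb, 2832 with 200 kb, 697 with 500 kb and 1109 with the JUN list cut to the length of the YAP list. With the stronger 50% of each list it was 4377, within 1.5 times of the main count. These were 49.1% of the 8911 JUN-only regions left, against 33.0% with the full lists. With the shorter JUN list the share was 29.7%. The ratio of median enrichment, far over near, was 1.04 with the stronger 50% of each list and 1.07 with the shorter JUN list. With −log10 p in place of enrichment it was 0.943, on the other side of 1. The ratio of median fragments, added after the values had been seen, was 0.889 at 500 kb, 0.954 with the stronger 50% and 0.967 with the shorter JUN list, and below 1 under every alternative run. The median gap to TEAD4 was 145, 321 and 647 kb at thresholds of 50, 200 and 500 kb, 238 kb where the gap also counted TEAD4, 282 kb with the stronger 50% and 193 kb with the shorter JUN list. At 200 kb, 57.5% of far regions had another within 100 kb and the highest chromosome share was 31.4%. At the 100-kb threshold, the highest chromosome share was 29.9% without chromosome X. The cause of these changes was not tested, beyond the thresholds' own construction. Peaks narrowed to 200 bp were run for the count, the enrichment and fragment ratios and the TEAD4 gap, and moved none of these 4 by the same measures.

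No paired analysis was possible because each factor has a single list over both replicates, and for the same reason no replicate was left out. The alternatives for motifs and genes were not run. The weakest listed JUN peak rested on 91 fragments, which limits what the JUN list can show.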
